A study of Mus musculus with 8 samples.

Results

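The wide hippocampal 5hmC regions are 4024 intervals of a merged peak list, chosen by their width, chromosome and position alone. The list was deposited for mouse hippocampus and holds 21990 regions, of which these are 18.3%. Each lies on an autosome, is wider than 2544 bp (the commonest width in the list) and shares no base with any of the 11664 regions listed for left ventricle. They were described against 16109 autosomal regions of exactly 2544 bp that also have no ventricular overlap. Counts are raw reads per region, and reads per kb are those counts divided by the width in kb.

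5-Hydroxymethylcytosine (5hmC) is made from 5-methylcytosine by the TET dioxygenases. It is an intermediate of active demethylation and also a lasting mark, and it is abundant in brain, where it is found in the bodies of transcribed genes and at enhancers of neurons. In DNA immunoprecipitation sequencing (DIP-seq) an antibody to 5hmC pulls down genomic fragments, so the number of reads over an interval reflects how much of it was captured and how deeply the library was read. A peak caller then marks stretches with many reads, and overlapping peaks can be merged into wider intervals.

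The animals were C57BL/6 mice that received 0 Gy (sham) or 1 Gy of protons, and tissue was taken 20 weeks later. The sources used here give neither age nor sex. DNA was combined from 5 mice in each treatment group, and there were 2 pools per dose. The sources used here do not say whether each pool holds 5 mice or both pools together do. P-values therefore measure only the spread between these pools, which may be technical. All 4 hippocampal pools were used for counts, and the ventricular files served only to find overlaps. The title of the study names long-term effects of proton exposure on DNA methylation as its subject, and the comparison of doses addresses that.

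Depth in the listed regions moved with dose. The sham pools held 266361 and 110699 counts over all hippocampal regions, and the irradiated pools 1912037 and 1628905. The sham pools stood apart from each other as well as from the irradiated pools, and results that rest on either of them are given with and without it. The files hold counts in called regions only, so these totals are not the depth of the libraries. The list was built from enriched reads, and the sources used here do not say which libraries set each region's borders. Width and count in these pools are therefore not independent measures, and the comparison of wide with 2544-bp regions below is a description.

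Most wide regions exceeded the 2544-bp width by little. Their median width was 2950 bp, with quartiles of 2698.8 and 3459 bp and a maximum of 7623 bp. A width of up to 3000 bp was found for 2162 regions (53.7%), and 699 (17.4%) lay within 100 bp of the 2544-bp width. Above 3000 and up to 4000 bp there were 1374 regions, above 4000 and up to 5000 bp 386, and above 5000 bp 102. A width above 5088 bp, more than a pair of abutting 2544-bp intervals can cover, was seen in 74 regions (1.84%). The set spread over 1566 different widths, and no width was shared by more than 14 regions. Together the wide regions covered 12.8 Mb.

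In raw counts, with no allowance for the unequal totals, the medians of wide regions were equal in both sham pools. Those of the 2544-bp regions were not. The median wide region held 7 reads in sham pool 1, 7 in sham pool 2, 93 in irradiated pool 1 and 84 in irradiated pool 2. The median 2544-bp region held 13, 2, 58 and 52 reads. With all pools thinned at random to 110699 reads, the wide medians in sham pools 1 and 2 were 3 and 7. Those of 2544-bp regions were 5 and 2, so at equal depth the sham pools differed in both sets, in opposite directions. Per kb of width, the median of wide regions was 2.13 reads in sham pool 1 against 5.11 in 2544-bp regions. In sham pool 2 it was 2.34 against 0.786. In irradiated pool 1 it was 30.4 against 22.8, and in irradiated pool 2 it was 26.9 against 20.4. Wide regions were thus the lower set in sham pool 1 and the higher set in the 3 other pools.

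The ratio of medians was 0.417 in sham pool 1, 2.98 in sham pool 2, 1.33 in irradiated pool 1 and 1.32 in irradiated pool 2. Means gave the same order, with ratios of 0.476, 1.92, 1.30 and 1.30. Of the wide regions, 351 (8.72%) exceeded the 2544-bp median of reads per kb in sham pool 1, 3289 (81.7%) in sham pool 2, 3168 (78.7%) in irradiated pool 1 and 3111 (77.3%) in irradiated pool 2. The irradiated pools gave nearly the same ratio, and the sham pools lay on either side of it.

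**Figure D1:**
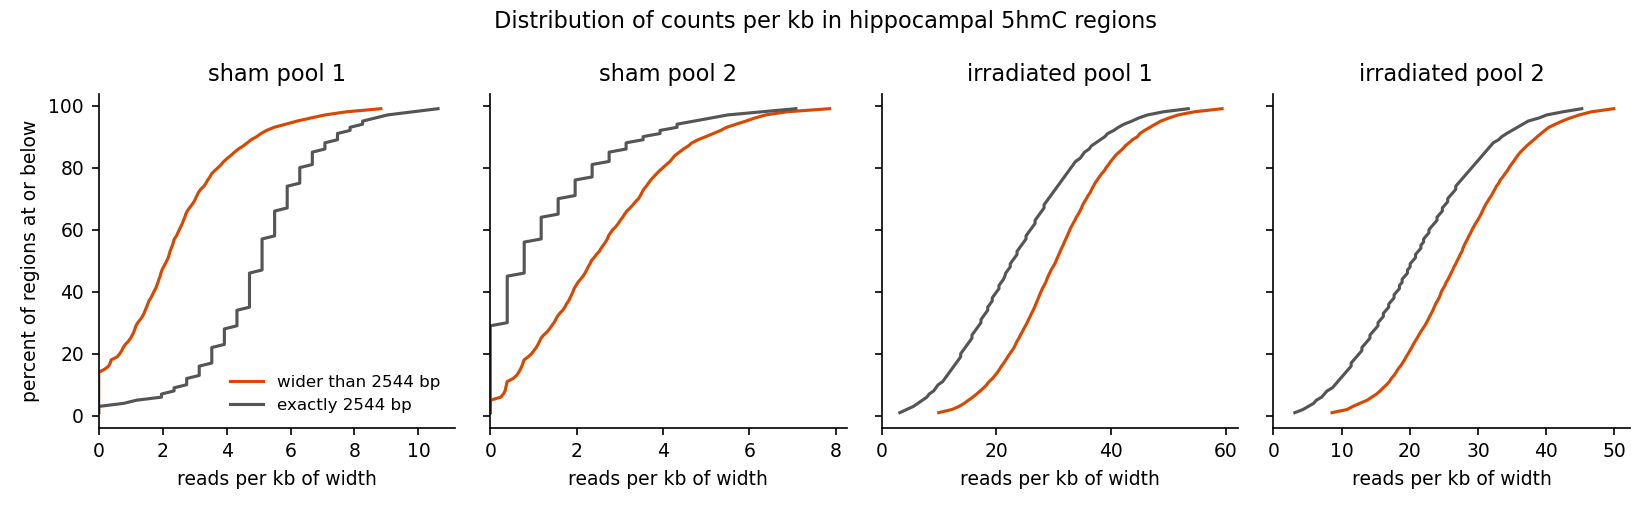
Cumulative distribution of reads per kb of width (x axis, a scale for each pool) over wide regions and regions of exactly 2544 bp, from the 1st to the 99th percentile; the y axis is the percent of regions at or below a value. The wide curve lies left of the 2544-bp curve in sham pool 1 and right of it in the other pools, with the gap closing toward the top of sham pool 2.

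Because a ratio within a library needs no scaling between libraries, it was used to compare the doses. The log2 ratio of wide to 2544-bp regions was -1.26 and 1.57 in the sham pools against 0.42 and 0.40 in the irradiated pools. The means were 0.16 ± 2.00 and 0.41 ± 0.01 (SD, n = 2 pools each). The difference of 0.25 was smaller than the spread of the sham pools (two-sided exact permutation p = 1.00, where 2 pools against 2 cannot give less than 0.333). Without sham pool 1 the difference was -1.17, and without sham pool 2 it was 1.67. The direction of the dose difference was set by which sham pool was kept.

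The share of autosomal region counts that fell in wide regions showed the same arrangement. It was 11.5% in sham pool 1 (95% exact binomial interval 11.3 to 11.6), 29.9% in sham pool 2 (29.6 to 30.1), 21.1% in irradiated pool 1 (21.0 to 21.1) and 21.8% in irradiated pool 2 (21.7 to 21.9). Reads were not collapsed by molecular identifier as far as the sources used here state, so these intervals allow for counting error alone. By length, wide regions made up 22.1% of the autosomal list. The shares averaged 20.7% ± 13.0 in sham and 21.4% ± 0.522 in irradiated pools (SD, n = 2), a difference of 0.767 percentage points (two-sided exact permutation p = 1.00). The gap between the sham pools was far wider than their counting intervals. Without sham pool 1 the difference was -8.44 percentage points, and without sham pool 2 it was 9.97. With all pools it was 3.05 when regions with ventricular overlap were kept. It was 3.21 without the 12 regions whose mean scaled count was over 20 times that of the median region. Without irradiated pool 2 it was 0.398.

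Wider regions held more reads in proportion to their width in the irradiated pools, but not in the sham pools. Across the 4024 regions, which share libraries and depth and are not replicates, the Spearman correlation of width with count was 0.421 and 0.426 in the irradiated pools and 0.080 and 0.138 in sham pools 1 and 2. With reads per kb it was -0.027 and -0.034 in the irradiated pools, -0.114 in sham pool 1 and -0.088 in sham pool 2. Between the narrowest and the widest class, the median count went from 83 to 173.5 in irradiated pool 1 and from 74 to 157.5 in irradiated pool 2. In sham pool 1 it went from 6 to 7, and in sham pool 2 from 7 to 11.

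Per kb of width, the ratio to 2544-bp regions fell along the width classes in sham pool 1 and changed little in the irradiated pools. In sham pool 1 it was 0.456 up to 3000 bp, 0.379 to 4000 bp, 0.362 to 5000 bp and 0.264 above that. In sham pool 2 the 4 ratios were 3.20, 2.91, 2.65 and 2.70. They were 1.34, 1.33, 1.31 and 1.40 in irradiated pool 1, and 1.33, 1.31, 1.29 and 1.44 in irradiated pool 2. The class up to 3000 bp, the largest, had ratios close to those of the whole set in the irradiated pools. For the class above 5000 bp the log2 ratio averaged -0.24 ± 2.37 in sham and 0.50 ± 0.03 in irradiated pools (SD, n = 2), a difference of 0.75 (two-sided exact permutation p = 1.00). Without sham pool 1 that difference was -0.93, and without sham pool 2 it was 2.43.

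**Figure D2:**
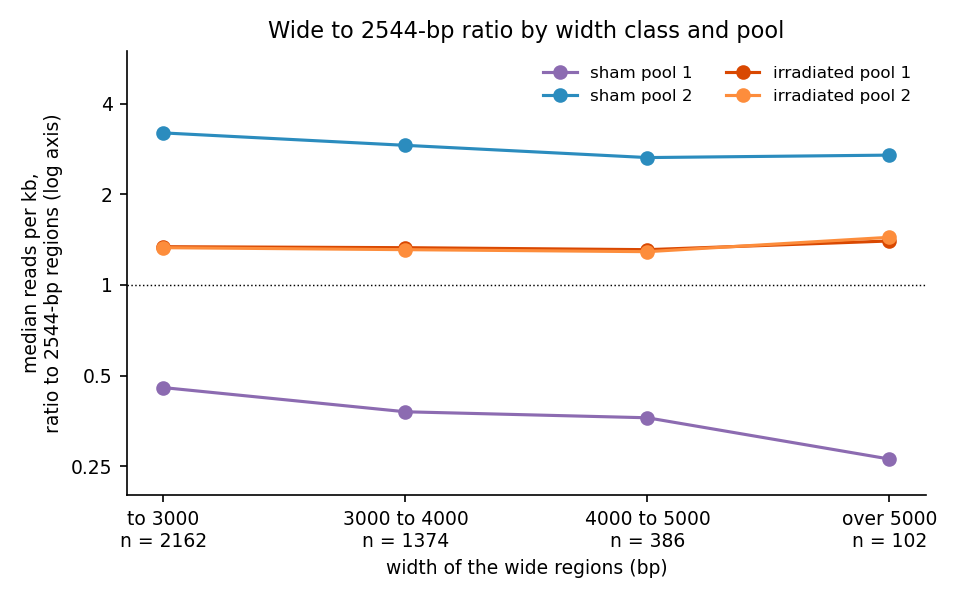
Ratio of the median reads per kb in wide regions to that in 2544-bp regions (y axis, log scale), for 4 width classes (x axis, bp, with the number of regions) and the 4 hippocampal pools; the dotted line marks a ratio of 1. Sham pool 1 lies below 1 in every class, sham pool 2 at 2.65 or higher, and the irradiated pools between 1.29 and 1.44.

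The 3 wide regions nearest the width limit, each 2545 bp long, lay at chr10:115444778-115447322, chr11:52720674-52723218 and chr14:119721145-119723689 of the mouse build mm9, which all positions here use. The first held 13 and 1 reads in the sham pools against 54 and 31 in the irradiated pools. The second held 9 and 5 reads in the sham pools against 74 and 70 in the irradiated pools. The third held 7 and 7 reads in the sham pools against 53 and 47 in the irradiated pools. The 2544-bp regions just outside the limit had medians of 13 and 2 against 58 and 52 reads, within the range of these 3 in each pool.

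Empty regions were common in the sham pools, where the sets differed in opposite directions. The intervals given here treat regions as independent draws, although the regions of a library are not replicates. In sham pool 1, 602 wide regions (15.0%, 95% exact binomial interval 13.9 to 16.1) stood at 0 reads, against 538 of the 2544-bp regions (3.34%, 3.07 to 3.63). In sham pool 2 the order was the reverse, with 226 wide regions at 0 (5.62%, 4.92 to 6.37) and 4809 of the 2544-bp regions (29.9%, 29.1 to 30.6). In the irradiated pools 0 of 4024 wide regions were empty, which allows a share of up to 0.0746% by the limit of 3 counts (the 95% exact binomial interval ends at 0.0916%), and the lowest count was 5 in each. When all pools were thinned at random to 110699 reads, 20.5% of wide regions were empty in sham pool 1, 5.62% in sham pool 2, and 1.71% and 1.09% in the irradiated pools. In 2544-bp regions the thinned shares were 4.59%, 29.9%, 8.35% and 7.36%.

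A region empty in one sham pool was filled in the other. This held in both sets, where 0 of 4024 wide and 0 of 16109 2544-bp regions stood at 0 in both sham pools. The part of list building in this was not tested. Reads in both sham pools were held by 3196 wide regions (79.4%), against 66.8% of 2544-bp regions. The 602 wide regions without a read in sham pool 1 had a median of 13 reads in sham pool 2, where the median over all wide regions was 7. The 226 without a read in sham pool 2 had a median of 11 in sham pool 1. The irradiated pools differed less between these subsets, with medians of 97 and 86 reads where sham pool 1 was empty, and 85 and 77 where sham pool 2 was empty.

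Counts in sham pool 1 were also distributed differently in the 2 sets. In 2544-bp regions the number of regions went from 1025 at 11 reads to 1904 at 12 reads in this pool. In wide regions there was no such step, with 156 regions at 11 reads and 146 at 12. At least 12 reads were found in 840 wide regions (20.9%) and in 10481 of the 2544-bp regions (65.1%). The 840 wide regions had a median of 15 reads in sham pool 1, 4 in sham pool 2, and 87 and 77 in the irradiated pools. The part of peak calling in this step was not tested.

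The ranks of wide regions ran against each other in the sham pools and together in the irradiated pools. Across the 4024 regions the Spearman correlation of counts was -0.500 for the sham pair and 0.624 for the irradiated pair. Against the irradiated pools the values were -0.092 and -0.106 for sham pool 1, and 0.124 and 0.126 for sham pool 2. In 2544-bp regions the sham pair gave -0.424 and the irradiated pair 0.664. These describe regions measured in the same libraries, with shared depth and, through width, shared size. No region of either set stood at 0 in both sham pools. The part of list building in the opposed ranks of the sham pools was not tested. Per kb of width the sham pools correlated at -0.511 and the irradiated pools at 0.523 in wide regions. Between doses the per-kb values were -0.147 and -0.169 for sham pool 1, and 0.049 and 0.057 for sham pool 2.

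**Figure D3:**
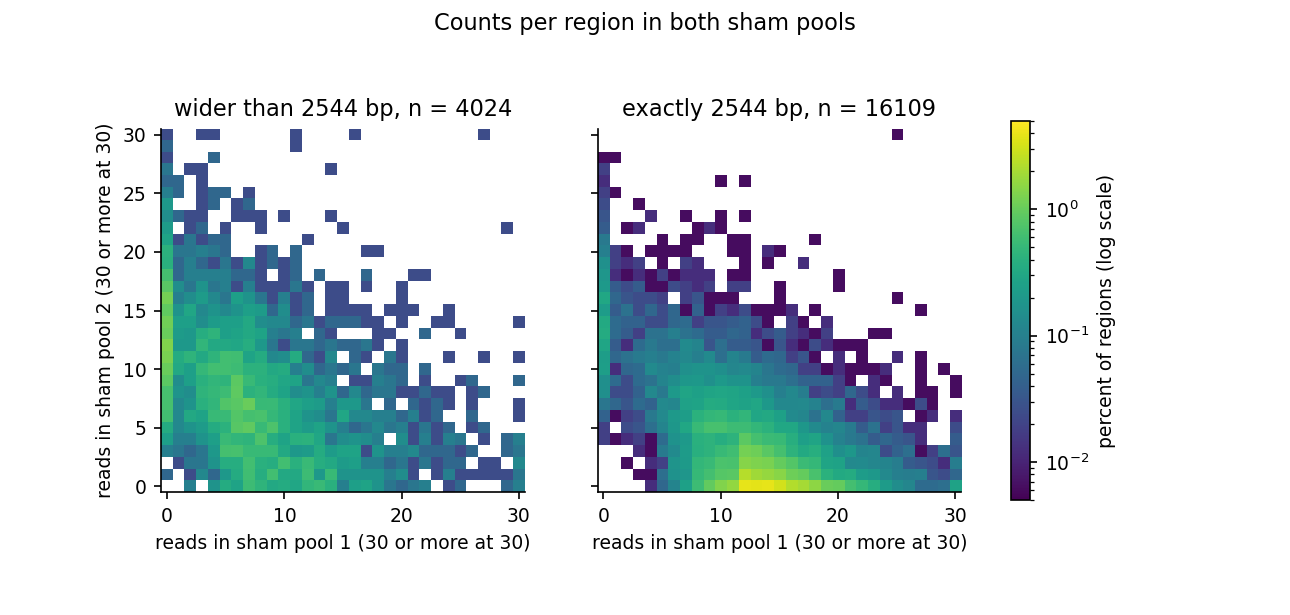
Reads per region in sham pool 1 (x axis) and sham pool 2 (y axis), with counts of 30 or more drawn at 30, for wide regions (left) and 2544-bp regions (right); colour gives the percent of the set's regions on a log scale. Wide regions spread along a falling diagonal with a column at 0 in sham pool 1, while 2544-bp regions concentrate at 12 or more reads in sham pool 1 and few in sham pool 2.

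The wide regions varied among themselves by more than counting error in every pool. Reads per kb had an SD of 1.99 around a mean of 2.39 in sham pool 1, where counting alone gives 0.891. In sham pool 2 the SD was 1.79 around 2.59, with 0.924 from counting. In the irradiated pools it was 10.5 around 31.0 and 8.97 around 27.4, with 3.18 and 2.99 from counting. Relative to the mean, wide regions were more even than 2544-bp regions in 3 pools. Their coefficient of variation was 69.3% against 128.5% in sham pool 2, 33.9% against 48.1% in irradiated pool 1 and 32.8% against 45.8% in irradiated pool 2. In sham pool 1 it was 82.9% against 41.1%. The 2544-bp regions in sham pool 2 had a mean of 1.35 reads per kb, with an SD of 0.729 from counting. Their highest count was 192 reads.

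The 10 widest regions were between 6576 and 7623 bp long. The widest lay at chr6:136067350-136074972 and held 5 and 18 reads in the sham pools against 183 and 233 in the irradiated pools. Next came a region at chr4:44995953-45003193, with 4 and 30 reads in the sham pools against 281 and 247 in the irradiated pools. In the latter, sham pool 1 held 0.552 reads per kb and sham pool 2 held 4.14. The third lay at chr8:125436539-125443720, with 5 and 11 against 278 and 250 reads. The fourth lay at chr4:140049747-140056887, with 3 and 33 against 221 and 176 reads. In all 4, sham pool 2 held more raw reads, although sham pool 1 had the larger total over the listed regions.

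The other 6 lay at chr18:12382712-12389809, chr10:75201641-75208737, chr4:57739505-57746543, chr2:166427711-166434731, chr11:7072288-7079305 and chr17:47430436-47437011. Over all 10, sham pool 1 held 2 to 19 reads and sham pool 2 held 10 to 33, with more reads in sham pool 2 in 9 of 10. The exception was the region of chromosome 2, with 19 and 10 reads in the sham pools against 287 and 323 in the irradiated pools. The irradiated pools held 163 to 301 and 139 to 323 reads. Per kb the widest regions had medians of 0.676 reads (sham pool 1) and 2.40 (sham pool 2), where the medians of all wide regions were 2.13 and 2.34. In the irradiated pools their medians were 34.7 and 32.9 reads per kb. Their edgeR log2 fold changes for dose lay between -0.17 and 1.69 and none passed an adjusted p (false discovery rate, FDR) of 0.05, with an FDR of 1.00 for each.

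**Figure D4:**
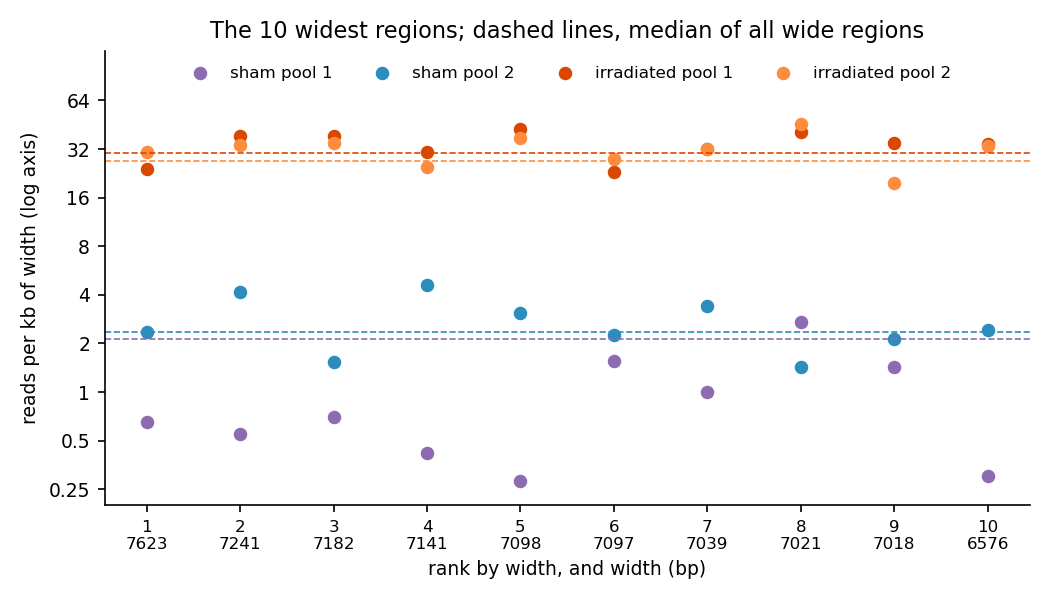
Reads per kb of width (y axis, log scale) in the 10 widest regions, ordered by width (x axis, rank and bp), with a point for each hippocampal pool and dashed lines at the pool medians over all wide regions. Sham pool 1 lies below its median in 9 of the 10, the exception being the eighth, and the irradiated pools lie between 19.8 and 46.0 reads per kb.

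Ranked by level, as the mean over pools that were each scaled by total, the leading wide region lay at chr10:9478178-9481803 (3626 bp). It held 27 and 43 reads in the sham pools against 545 and 374 in the irradiated pools, the largest sum of any wide region in either dose group. Its level was 69.3 CPM per kb (CPM is a count scaled by the library total) ± 33.0 (SD over 4 pools), and the next region stood at 41.0. No wide region belonged to the 12 regions of the list whose mean scaled count, not divided by width, was over 20 times that of the median region. The log2 fold change of the region of chromosome 10 was 0.39 (SE 0.94, edgeR FDR 1.00).

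The next 9 by level had 33.2 to 41.0 CPM per kb and did not rank alike in the pools. The region at chr11:106416348-106418972 held 4 reads in sham pool 1 and 28 in sham pool 2, with 179 and 113 in the irradiated pools. The region at chr16:10974211-10976756 held 14 and 5 in the sham pools against 246 and 283 in the irradiated pools, the highest count per kb of the wide regions in irradiated pool 2 (111.2). In the region at chr14:32817475-32820033 both sham pools were high for wide regions, with 29 and 22 reads, and the irradiated pools held 55 and 60. Its log2 fold change was -1.90 (SE 0.96, edgeR FDR 1.00). The other 6 lay at chr1:90148092-90150666, chr2:167938691-167941657, chr2:166502102-166504997, chr4:153966951-153970161, chr8:81894289-81897656 and chr9:107955198-107957969.

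For dose, the whole hippocampal table was tested with edgeR's quasi-likelihood test, and the wide regions were read from that fit. The low-count filter kept 4023 of the 4024. None passed an FDR of 0.05, where 0% of all 21498 tested regions passed, and DESeq2 called 0 wide regions among 1 call in the list (0.00455% lower and 0% higher). An unadjusted edgeR p under 0.05 was found for 92 wide regions (2.29%), 90 higher and 2 lower after 1 Gy, against 1.04% of all tested regions (157 higher and 67 lower). This excess over all regions, with both directions together, was much smaller under the 3 other scalings and with DESeq2. In each of these, wide regions at this p were still mostly higher, while all tested regions were mostly lower. Total counts in edgeR gave 44 wide regions (1.09%, 33 higher and 11 lower), against 1.07% of all (51 higher and 179 lower). DESeq2-type size factors in edgeR gave 52 (1.29%, 45 higher and 7 lower), against 1.07% (70 and 159). Loess offsets gave 133 (3.31%, 119 higher and 14 lower), against 2.96% (251 and 386). DESeq2 gave 152 (3.78%, 130 higher and 22 lower), against 3.68% (240 and 570). The median log2 fold change was 0.46 in wide regions, 0.01 in 2544-bp regions and 0.11 in all tested regions. A positive value was found for 72.0% of wide regions and 55.4% of all.

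In 1303 wide regions each irradiated pool exceeded each sham pool (32.4%, against 22.6% of all tested regions), in CPM scaled by TMM, which sets library sizes from a trimmed mean of ratios. In 93 (2.31%, against 8.46%) each irradiated pool was the lower. The size of this split moved with the scaling. With total counts 882 wide regions were above (21.9%, against 12% of all tested regions) and 262 below (6.51%, against 14.9%). Loess offsets gave 1109 above (27.6%, against 23.5% of all) and 232 below (5.77%, against 17.3%). DESeq2-type size factors gave 951 above (23.6%, against 15.4%) and 180 below (4.47%, against 12.4%). The median log2 fold change of all tested regions went from 0.11 to -0.27 with total counts, -0.15 with size factors and -0.01 with loess offsets. That of wide regions alone was 0.46 with TMM and 0.12, 0.20 and 0.18 under the same 3 scalings. The median of wide regions relative to 2544-bp regions was 0.45 with TMM. It lay between 0.24 and 0.57 under the other settings that kept all pools. The value of 0.57 came from thinned libraries, where only 269 wide and 63 2544-bp regions passed the low-count filter.

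Leaving out a sham pool changed both the number and the direction of calls in wide regions. Without sham pool 2, edgeR called 1916 wide regions higher after 1 Gy (47.6%, against 15.4% of all tested regions) and 27 lower (0.671%, against 5.23%). Without sham pool 1 it called 251 higher (6.24%, against 10.1%) and 343 lower (8.52%, against 5.32%). The remaining sham library was then assumed to vary like the irradiated pools. Of the 1916, 600 stood at 0 reads in sham pool 1, and of the 251, 183 stood at 0 in sham pool 2, so no fold is given for them. The fits share the irradiated pools. With an irradiated pool left out, edgeR called 0 wide regions in either case. An unadjusted p under 0.05 was then found for 2 wide regions without irradiated pool 1 (0.0510%, against 0.0142% of all tested regions) and for 3 without irradiated pool 2 (0.0769%, against 0.0143%).

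The median log2 fold change of wide regions was 1.49 without sham pool 2 and -0.15 without sham pool 1, and that of 2544-bp regions was -0.16 and 1.06. Wide regions therefore lay 1.66 above 2544-bp regions against sham pool 1, and 1.21 below them against sham pool 2 (difference -1.21). With regions at 0 in the remaining sham pool set at a floor of 3 reads in that pool, these differences were 1.64 and -0.38. Of the tested 2544-bp regions 4718 had no read in sham pool 2, and the direction of both differences held with the floor. Regions with some reads but fewer than the floor kept their fitted values, so empty regions were set above them. The floor is therefore a rough check of size.

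**Figure D5:**
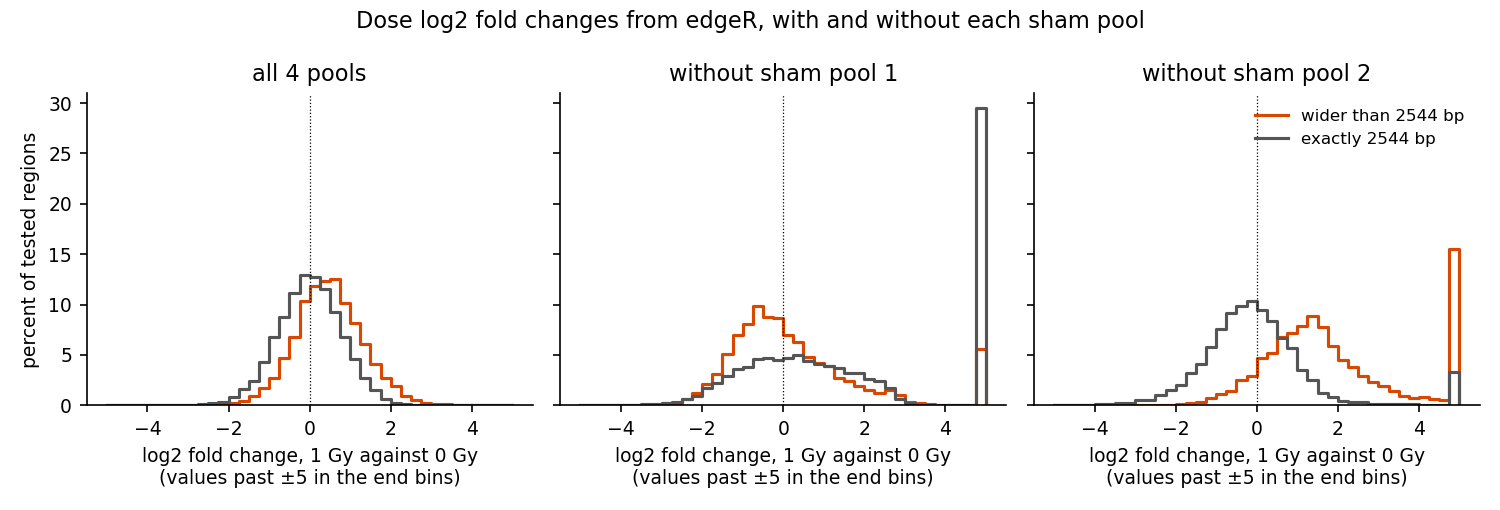
Percent of tested regions (y axis) by edgeR log2 fold change for 1 Gy against 0 Gy (x axis, bins of 0.25, values past 5 in the end bins) for wide and 2544-bp regions, with all 4 pools and without each sham pool. The wide curve is centred at 0.46 with all pools, at -0.15 without sham pool 1 and at 1.49 without sham pool 2.

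The 5 wide regions with the lowest p among those higher after 1 Gy rested on few sham reads. That at chr1:75545413-75548397 held 3 and 1 reads in the sham pools against 144 and 97 in the irradiated pools. Scaled by library totals it was 6.42-fold higher, with a 95% counting interval of 2.47 to 23.7 (edgeR log2 fold change 3.05, SE 0.89, unadjusted p = 0.00903, FDR 1.00). Its log2 fold change lay between 2.65 and 3.30 under all scalings and with each pool left out, and it could not be tested in thinned libraries. The others lay at chr12:100793583-100796325, chr15:18905435-18908889, chr2:168094780-168098990 and chr7:31367401-31370122. In these 4 the sham pools held 0 to 2 reads each, with an empty library in every case, and the irradiated pools 64 to 149.

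The 5 with the lowest p among those lower after 1 Gy held fewer reads in the sham pools than in the irradiated pools before scaling by totals, and more after it. At chr7:81873128-81875726 there were 14 and 13 reads in the sham pools against 25 and 29 in the irradiated pools. In CPM scaled by TMM the means were 77.9 ± 47.6 against 17.5 ± 3.30 (SD, n = 2). The log2 fold change was -2.07 (SE 0.77, edgeR FDR 1.00). It was -2.70 without sham pool 1 and -1.30 without sham pool 2. At chr18:20697220-20700027 the sham pools held 21 and 7 reads and the irradiated pools 37 and 29 (log2 fold change -1.58, SE 0.66, edgeR FDR 1.00). The 3 others lay at chr1:95044184-95046878, chr18:28020856-28023426 and chr5:30914735-30917492, with 9 to 15 reads in each sham pool and 16 to 42 in each irradiated pool. In all 5 the irradiated pools held fewer reads than the 93 and 84 of the median wide region.

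Wide regions were found on all 19 autosomes. Their number went from 107 on chromosome 19 to 327 on chromosome 2. They made up 14.5% of a chromosome's regions on chromosome 3 and 21.3% on chromosome 15, with a median of 18.7%. Per Mb between the first and last listed region there were 1.07 on chromosome 3 and 2.42 on chromosome 11, with a median of 1.76. Chromosome 3 was thus lowest by both measures. The positions come from a single list and have no replicate check.

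The departure of the sham pools was the same on every autosome. The wide to 2544-bp ratio of median reads per kb was below 1 in sham pool 1 on 19 of 19, from 0.365 on chromosome 8 to 0.462 on chromosome 3. In sham pool 2 it was above 1 on 19 of 19, from 2.59 on chromosome 16 to 3.51 on chromosome 19. In irradiated pool 1 it ran from 1.25 on chromosome 7 to 1.41 on chromosome 12. In irradiated pool 2 it ran from 1.18 on chromosome 19 to 1.39 on chromosome 16. The ranges of the sham pools overlapped neither each other nor those of the irradiated pools. Chromosomes of a library are not replicates.

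Wide regions had closer neighbours than 2544-bp regions. The median gap to the nearest listed region was 17.8 kb for wide and 27.0 kb for 2544-bp regions, and it was smaller for wide regions on 19 of 19 autosomes. Within 500 kb to either side the median wide region had 15 other regions and the median 2544-bp region 12. Gaps hardly followed width, with medians of 17.8 kb up to 3000 bp, 18.6 kb to 4000 bp, 15.4 kb to 5000 bp and 16.8 kb above that. The nearest listed region was itself wider than 2544 bp for 27.8% of wide and 19.1% of 2544-bp regions, where 20.6% of all autosomal regions were that wide.

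Counted in fixed windows of 1 Mb, wide regions fell in 1403 of the 2332 windows that held any autosomal region (60.2%). A window with a wide region held a median of 2, and 269 windows held 5 or more. The fullest, on chromosome 2 from 27000001 to 28000000, held 14 wide regions among 26 listed, with median counts of 6 and 10 reads in the sham pools against 111.5 and 106.5 in the irradiated pools. On chromosome 4 from 134000001 to 135000000 there were 13 among 30, with medians of 9 and 8 against 122 and 100 reads. These windows were picked after their values had been seen.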

How the data were processed

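Each deposited hippocampal file gives a raw read count for every interval of the same merged list, in 4 libraries. Named in the submitters' processing notes, without a role, are the build mm9 and the tools Bowtie 1.0.0, CASAVA 1.8.2 and DESeq2. The sources used here name no peak caller, merging rule, duplicate filter or input. Taking the files as BED intervals, coordinates were made 1-based. Genes and sequences of this build were not used here.

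Width was end minus start, and overlap needed 1 bp. Counts were divided by width in kb. The dose test used edgeR 4.0.16 (R 4.3.3) on all hippocampal regions, with TMM, filterByExpr and a quasi-likelihood F-test at a Benjamini-Hochberg FDR of 0.05. SEs were taken from the log2 fold change and F. DESeq2 1.42.0 was an alternative. Ratios and shares were compared over pools by exact permutation. Scripts were tested on simulated data. In the dose fit the median SE of the log2 fold change was 0.947 over all tested regions, so small differences could go uncalled. Alternatives were other scalings and filters, libraries left out or thinned, the replicate block, means, other width limits and kept ventricular overlaps. The crossed block and other scalings of non-overlapping regions were chosen after seeing the data.

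Named regions are the 10 widest, the 10 highest by level, the 5 smallest dose p per direction (none passed), the 3 nearest the width limit and the highest count per dose. The wide regions, rules and tests were chosen with earlier results of these data known.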

Additional observations from a re-analysis of the deposited data

How the results depend on the processing

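With a pool left out, the dose difference of the log2 wide to 2544-bp ratio ranged from -1.17 to 1.67, that of the class above 5000 bp from -0.93 to 2.43, and that of the share of counts from -8.44 to 9.97 percentage points. The median log2 fold change of wide minus 2544-bp regions ranged from -1.21 to 1.66, and the number of wide regions called from 0 to 1943 (594 without sham pool 1, 1943 without sham pool 2). The mean log2 ratio over pools was 0.28, and ranged from -0.15 (without sham pool 2) to 0.80 (without sham pool 1). Every reversal came from leaving out a sham pool. Settings that kept all pools gave 0 calls in wide regions in each of 12 cases. Among these, thinned libraries left only 269 wide regions tested, and 2 of all 466 tested regions were called (0.429%). Dose differences ran from 0.24 to 0.45 for the ratio, and from 0.699 to 3.21 percentage points for the share. The wide regions below both sham pools were 93 with TMM and 180, 232 and 262 under other scalings.

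The pools share only a replicate number (correlation of deviations 0.00476 over wide regions). With the number as a replicate block the differences were 0.25, 0.75 and 0.767 percentage points, the median difference was 0.51 and 0 wide regions were called, with 38 at an unadjusted edgeR p under 0.05 (0.945%, against 0.284% of all tested regions), where 92 were found without the block. Counts were lowest in the sham pools: at 7 reads a median wide region there cannot show small differences. The parts of depth and of the spread between the sham pools in the lack of calls were not tested.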

Other observations

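Wide regions left out above for their ventricular overlap held higher median counts in the irradiated pools, before any division by width. Of 4481 autosomal wide regions 457 (10.2%) overlapped a ventricular region, against 856 of 16965 regions of 2544 bp (5.05%). The share was 9.88% up to 3000 bp, 9.78% to 4000 bp, 12.1% to 5000 bp and 15.0% above that. The 457 had median counts of 7 and 8 reads in the sham pools against 113 and 100 in the irradiated pools. Wide regions without overlap had 93 and 84 in the latter. The same direction was seen in 2544-bp regions, with 78 and 68 reads with overlap against 58 and 52 without it. These are descriptions of a single list and were not tested.

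On chromosome X, wide regions held higher median counts than 2544-bp regions in 3 pools and a lower one in sham pool 1. Chromosome X had 19 wide regions among 267, with median counts of 10 and 11 reads in the sham pools against 236 and 198 in the irradiated pools. Its 247 regions of 2544 bp had medians of 15 and 0 against 18 and 15. Of the 19, 14 overlapped a ventricular region. On chromosome Y 11 of 14 regions were wide, all with ventricular overlap, and held medians of 21 and 34 against 831 and 664 reads. The 263 autosomal regions narrower than 2544 bp had medians of 8 and 6 against 56 and 48 reads.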
